A study of Mus musculus with 16 samples.

Results

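The genes described here encode the nuclear part of the mitochondrial respiratory chain and of ATP synthase, with a few proteins that help to build them. They were chosen by gene symbol alone, as every symbol that starts with Nduf, Uqcr, Cox4 to Cox8, Sdha to Sdhd or Atp5, and this found 96 of the 18850 genes named on the arrays, each with 1 probe set. Of the 96, 92 were bright enough to test, while Cox6b2, Cox7b2, Cox8b and Ndufa4l2 were not. Complex I contributed 43 genes, complex II 8, complex III 8, complex IV 20 and complex V, the ATP synthase, 17. Among them, 84 encode subunits or closely related proteins and 12 encode assembly factors.

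The RNA came from mouse colon organoids, which are epithelial cultures, grown in the medium called ENR. The arrays form 4 groups of 4 each, with 1 array per sample, and no other treatment is recorded for any of them. They were mutant organoids with tumour necrosis factor alpha (TNFa), mutant organoids without it, wild-type (WT) organoids with TNFa and WT organoids without it. The treatment was recombinant TNFa at 50 ng/ml for 12 h, and only samples whose own labels name TNFa were counted as treated, because the treatment text stands on every sample. The mutant samples carry alterations of 2 related transcription factor genes, ATF2 and ATF7. Their titles give ATF2/7 fl, their genotype entries ATF2 fl/fl with ATF7 KO, and their descriptions a knockout of ATF2 with a floxed ATF7. The labels are silent on recombination of the floxed allele, on the Cre used and on the age of the animals, and no named probe set measured Atf7. The labels number the samples 1 to 4 in each group without saying whether they were separate animals or cultures. The p-values therefore rest on the spread of these samples alone, which may be technical.

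The values are log2 signals that the authors normalised with RMA (robust multi-array average), so a difference of 1 is a doubling. Genes were tested in limma over all 11766 genes that passed the brightness filter, with Benjamini-Hochberg adjustment, and a gene is said to have risen or fallen where its adjusted p was under 0.05. The number of arrays limits the precision. All 11 colon epithelium markers on the arrays were bright enough to test, with Epcam at 11.35 ± 0.03 log2 in WT organoids (SD, n = 4). All 8 endothelial and glial markers, 10 of 11 immune markers and 9 of 12 fibroblast and smooth muscle markers were dim in every group. The others had group means of 7.58 to 8.83 log2 (Lyz2), 8.07 to 8.19 (Col1a1), 7.50 to 7.64 (Pdgfrb) and 6.65 to 6.74 (Myh11). Lyz2, of the immune list, fell by 0.74 log2 with TNFa in WT organoids (adjusted p 0.0244). With TNFa it was 1.25 log2 higher in mutant than in WT organoids (adjusted p 0.00177). WT replicate 2 with TNFa stood apart, with a mean correlation of 0.977 to the other arrays of its group, against 0.986 to 0.995 for every other array.

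The respiratory chain passes electrons from NADH (complex I) and succinate (complex II) through complex III and cytochrome c to oxygen at complex IV. The proton gradient built on the way drives ATP synthesis at complex V. Complexes I, III, IV and V mix proteins from mitochondrial and nuclear genes, while complex II is entirely nuclear-encoded. In the colon, surface epithelial cells burn butyrate made by bacteria and depend on this chain for much of their ATP. The 26 symbols of mitochondrially encoded genes that were looked for had no probe set on the arrays, so the nuclear side alone is described.

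Most of these genes lay near the bright end of the arrays, with a median signal of 11.1 log2 over the tested members, against 8.22 log2 over all tested genes. Mean signals of 12 log2 or more were seen for 20 of the 92 members (21.7%) and for 1.05% of all tested genes. The brightest probe set of each complex was that of Ndufa5 in complex I, Sdhb in II, Uqcrh in III, Cox7c in IV and Atp5md in V, which gives no order of RNA amounts, since probe sets bind unequally. Ndufa5, Cox7c and Atp5md differed by -0.08, -0.05 and -0.05 log2 with TNFa in mutant organoids and by -0.07, -0.02 and 0.01 log2 in WT organoids, and none of these passed. Whether the brightest probe sets were close to saturation was not tested.

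Few of these genes changed with TNFa in either genotype, and by little. In mutant organoids 1 of the 92 rose and 1 fell, against 3.51% and 2.47% of all tested genes that rose and fell. In WT organoids 1 of the 92 rose and 4 fell, against 5.03% and 5.75% of all tested genes. The gene that rose in both genotypes was Sdhaf1, a complex II assembly factor, and the gene that fell in both was Cox7a1, a subunit isoform of complex IV. Sdha, Atp5c1 and Ndufb10 also fell in WT organoids. Without WT replicate 2 with TNFa, again 1 rose and 4 fell in WT organoids, though Sdhaf4 and Uqcrfs1 then stood in place of Sdha and Atp5c1. The fitted 95% interval lay within 0.5 log2 of zero for 89 of the 92 genes in mutant organoids and for 89 in WT organoids. Among 76 mitochondrial ribosomal protein genes it did so for 76 in each genotype. Among 15 genes of mitochondrial fatty acid oxidation it did so for 14 in mutant and 11 in WT organoids.

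**Figure D1:**
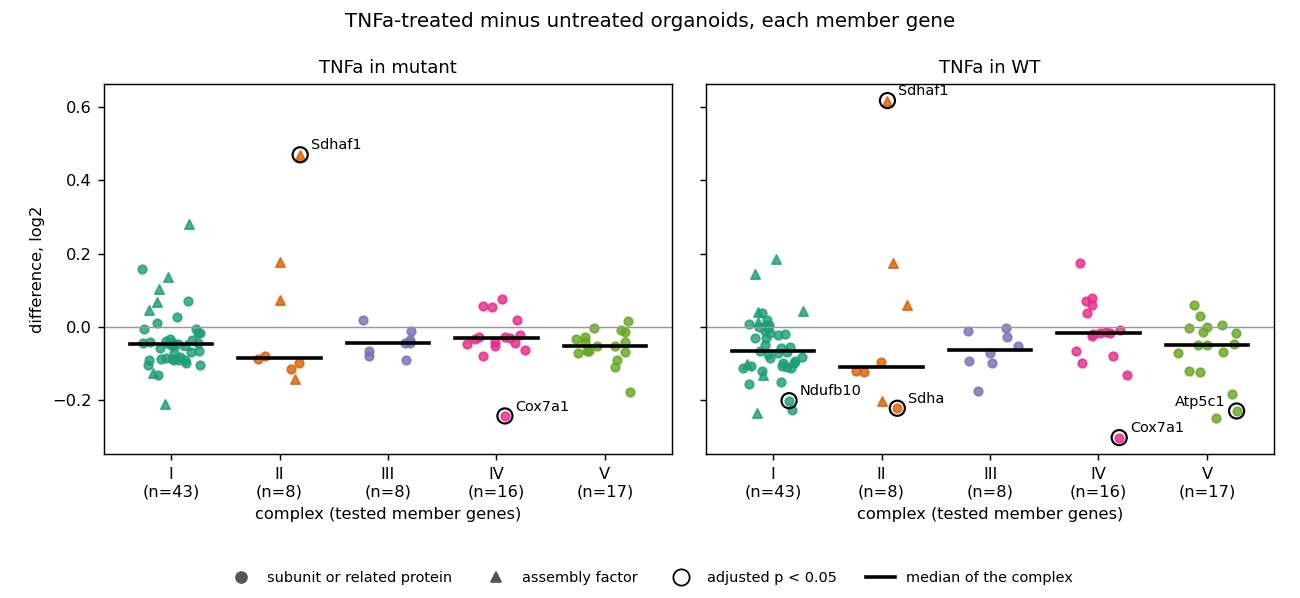
Difference in log2 signal between TNFa-treated and untreated organoids for each tested gene, by complex, in mutant organoids (left) and WT organoids (right). Circles are subunits, triangles assembly factors, black rings mark adjusted p under 0.05 and black bars are medians. Sdhaf1 lies above all other genes in both panels and most points lie slightly below zero.

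The small differences leaned one way. With TNFa, 74 of the 92 genes (80.4%) had the lower mean in treated mutant organoids and 69 (75.0%) in treated WT organoids, against 47.2% and 47.1% of all tested genes. The median difference was -0.04 log2 in mutant and -0.05 log2 in WT organoids, against 0.01 log2 over all tested genes in each. These 2 comparisons share no array: 62 members (67.4%) were lower with TNFa in both, against 28.7% of all tested genes. Among the 1766 tested genes with a mean of 10 log2 or more, the median difference was 0.01 log2 in mutant and 0.00 log2 in WT organoids. Apart from the counts of genes that passed the test, these are descriptions, and no test was made of the list. In RNA from whole organoids, fewer cells of a type that uses these genes and less of their RNA per cell cannot be told apart.

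Treated and untreated arrays did not overlap at all for some members. In mutant organoids 13 members were lower on every treated array than on every untreated one (14.1%, against 5.98% of all tested genes), and 2 were higher (2.17%, against 7.88%). In WT organoids 15 were lower (16.3%, against 7.34%) and 3 were higher (3.26%, against 6.82%). Atp5c1, Atp5g1, Atp5o, Cox7a1, Ndufa6, Ndufb10, Sdhb and Uqcrh were lower without overlap in both genotypes, which makes 8 of 92 (8.70%), against 2.91% of all tested genes. Sdhaf1 was the 1 member higher without overlap in both, as were 3.16% of all tested genes.

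Averaged over the 80 tested subunits and related proteins, and measured from each array's own median, the level was 2.74 ± 0.02 log2 in treated mutant and 2.81 ± 0.02 log2 in untreated mutant organoids (SD, n = 4 each). In WT organoids it was 2.77 ± 0.03 log2 with TNFa and 2.84 ± 0.01 log2 without it. The 4 treated mutant arrays spanned 2.73 to 2.77 and the 4 untreated ones 2.78 to 2.82. The treated WT arrays spanned 2.74 to 2.81 and the untreated ones 2.83 to 2.84. For these 80 genes treated and untreated arrays did not overlap in either genotype, at a distance of under 0.1 log2 between the group means. Over all 92 members, assembly factors included, they did overlap: 2.37 to 2.42 log2 on treated and 2.41 to 2.44 log2 on untreated mutant arrays, and 2.39 to 2.46 log2 on treated and 2.46 to 2.47 log2 on untreated WT arrays. The lowest treated WT value was not that of replicate 2, the array that stood apart.

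**Figure D2:**
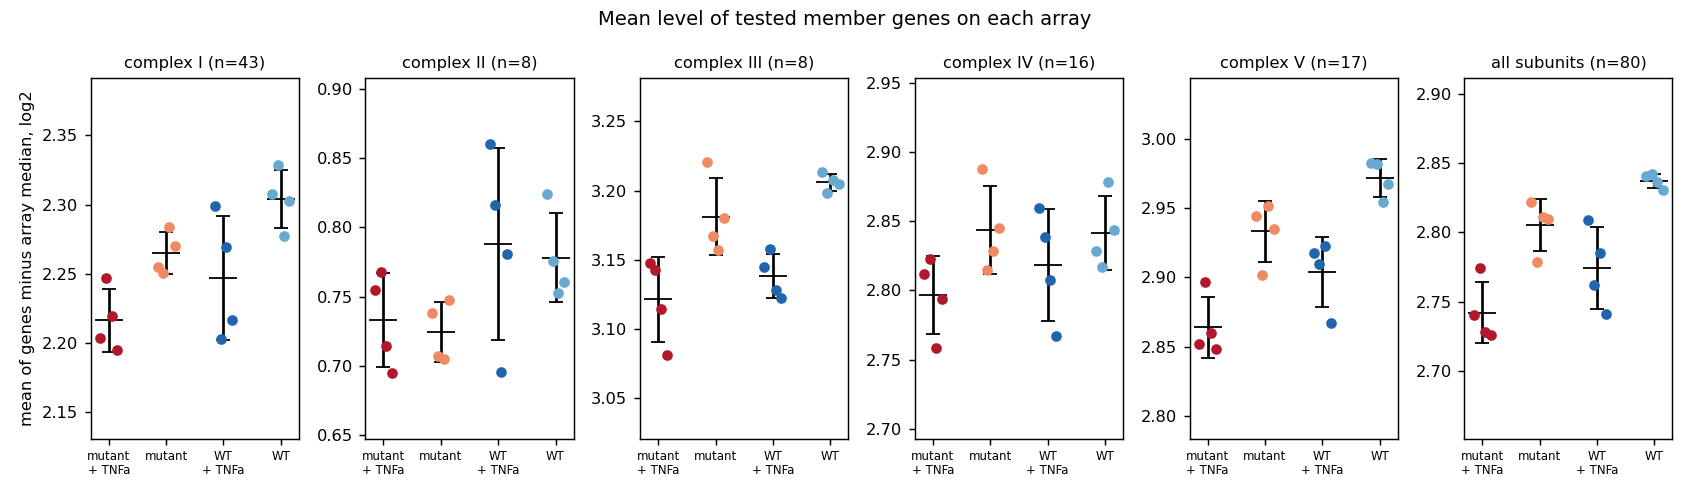
Mean log2 signal of the tested genes of each complex, minus the array's median over all tested genes, for every array (points) with the group mean and SD (bars). For all subunits, treated arrays lie below untreated ones in both genotypes, and the same holds for complexes III and V. Complexes II and IV overlap in both genotypes and complex I in WT organoids.

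The absorptive colonocyte markers moved with the same treatment, in both directions. In mutant organoids 3 of the 12 rose and 1 fell, and in WT organoids 4 rose and 1 fell. Guca2b, a secreted gut peptide, was 1.27 and 1.65 log2 higher with TNFa in mutant and WT organoids, and Fabp2, a fatty acid carrier, was -0.91 and -1.16 log2. The mean level of the list ran from 11.01 to 11.08 log2 on treated and 10.76 to 11.02 log2 on untreated mutant arrays, and from 11.21 to 11.35 log2 on treated and 11.02 to 11.14 log2 on untreated WT arrays. The goblet cell markers ran from 10.75 to 10.81 log2 on treated and 10.73 to 10.83 log2 on untreated mutant arrays, and from 10.56 to 10.67 log2 on treated and 10.77 to 10.81 log2 on untreated WT arrays. The part of these shifts in the levels of the respiratory genes was not tested.

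Complex II, succinate dehydrogenase, links the tricarboxylic acid cycle to the respiratory chain, and it held the only member that rose. Sdhaf1 helps to insert the iron-sulfur clusters of the SDHB subunit. Its signal was 9.35, 9.15, 9.47 and 8.92 log2 in treated mutant organoids, against 8.67, 8.77, 8.78 and 8.79 log2 in untreated mutant organoids. It was 9.24, 9.21, 8.77 and 9.19 log2 in treated WT organoids, against 8.51, 8.44, 8.42 and 8.56 log2 in untreated WT organoids. Every treated array was above every untreated array of its genotype, and treated arrays were more spread than untreated ones. The rise was 0.47 log2 in mutant organoids (SE 0.11, adjusted p 0.0129) and 0.62 log2 in WT organoids (SE 0.11, adjusted p 0.00103), or 1.39-fold and 1.53-fold higher. The effects differed by -0.15 log2 (mutant minus WT, SE 0.15, adjusted p 0.879), with an interval of -0.47 to 0.18. The rise in mutant organoids did not pass without treated mutant replicate 1 (adjusted p 0.0539) or replicate 3 (0.0564), whereas in WT organoids it passed without any single array.

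The 4 subunits of complex II did not share that rise. Sdha, the flavoprotein subunit that oxidises succinate, had 9.30, 9.51, 9.44 and 9.39 log2 in treated mutant organoids, against 9.47, 9.50, 9.41 and 9.58 log2 in untreated mutant organoids. It had 9.53, 9.55, 9.56 and 9.65 log2 in treated WT organoids, against 9.88, 9.89, 9.70 and 9.71 log2 in untreated WT organoids. The mutant arrays overlapped, and the WT arrays did not. Sdha fell in WT organoids by 0.22 log2 (SE 0.06, adjusted p 0.0349), and the difference in mutant organoids was -0.08 log2 (adjusted p 0.659). The WT call was lost without any 1 of 5 arrays, with adjusted p of up to 0.108, and WT replicate 2 with TNFa was among them (0.0545). A test of the effects against each other gave 0.14 log2 (SE 0.09, adjusted p 0.791), so a difference between the genotypes was not shown.

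Sdhb, the iron-sulfur subunit, had 11.36, 11.40, 11.38 and 11.34 log2 in treated mutant organoids, against 11.47, 11.49, 11.40 and 11.47 log2 in untreated ones. In WT organoids it had 11.45, 11.33, 11.45 and 11.40 log2 with TNFa, against 11.50, 11.52, 11.55 and 11.54 log2 without it. No treated array reached the lowest untreated one of its genotype, but the differences of -0.09 log2 (adjusted p 0.412) and -0.12 log2 (adjusted p 0.127) did not pass. The membrane anchors Sdhc and Sdhd differed by -0.10 and -0.12 log2 in mutant and by -0.10 and -0.12 log2 in WT organoids, and neither passed. Among the other assembly factors of complex II, Sdhaf3 differed by 0.18 log2 in each genotype and Sdhaf4 by -0.14 log2 in mutant and -0.20 log2 in WT organoids, without passing. Without WT replicate 2 with TNFa, Sdhaf4 passed in WT organoids at -0.26 log2 (adjusted p 0.0416).

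Complex IV, cytochrome c oxidase, is known for subunit isoforms that change with the tissue. Cox7a1 is the form typical of heart and skeletal muscle. Its signal was 10.62, 10.62, 10.75 and 10.65 log2 in treated mutant organoids, against 10.94, 10.80, 10.98 and 10.90 log2 in untreated mutant organoids. It was 10.74, 10.81, 10.56 and 10.71 log2 in treated WT organoids, against 10.88, 11.02, 11.02 and 11.10 log2 in untreated WT organoids. Treated arrays were below all untreated ones in both genotypes. The gene fell by 0.24 log2 in mutant (SE 0.07, adjusted p 0.0359) and by 0.30 log2 in WT organoids (SE 0.07, adjusted p 0.00567), or 1.18-fold and 1.23-fold lower. The call in mutant organoids was lost without any 1 of 6 arrays, with adjusted p of up to 0.106, whereas the call in WT organoids was kept without any single array.

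Ckm and the listed myosin genes of striated muscle were dim. Ckm averaged 5.90 ± 0.13 log2 in treated and 5.86 ± 0.17 log2 in untreated mutant organoids (SD, n = 4 each). In WT organoids it averaged 5.86 ± 0.14 log2 with TNFa and 5.82 ± 0.08 log2 without it (SD, n = 4 each). Of the 9 muscle markers on the arrays, 5 were dim in every group (Ckm, Myh1, Myh4, Myh6 and Myh7) and none of the other 4 passed in a TNFa comparison. Group means of these 4 were 8.23 to 8.58 log2 for Tnni2, 7.26 to 7.90 for Acta1, 7.60 to 7.67 for Mb and 6.82 to 6.92 for Actn3. Tnni2 was higher in mutant than in WT organoids, by 0.30 log2 with TNFa (adjusted p 0.00572) and 0.33 log2 without it (adjusted p 0.00233). The mean level of the list ran from 6.25 to 6.30 log2 on treated and 6.19 to 6.38 log2 on untreated mutant arrays, and from 6.02 to 6.35 log2 on treated and 6.13 to 6.23 log2 on untreated WT arrays.

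The other isoforms of restricted expression in this complex were dim or had signals under the median of all tested genes, 8.22 log2. No detection limit was measured. Cox6b2, Cox7b2, Cox8b and Ndufa4l2 had group means of at most 6.11 log2, under the limit of 6.56 log2 used here for a dim gene. Cox4i2, an isoform of the lung and of oxygen-sensing cells, averaged 7.15 ± 0.05 and 7.10 ± 0.05 log2 in treated and untreated mutant organoids, and 7.21 ± 0.15 and 7.14 ± 0.11 log2 in treated and untreated WT organoids (SD, n = 4 each). Cox6a2, another muscle form, and Cox8c, a form described in testis, averaged between 6.99 and 7.47 log2 in every group. None of these 3 passed in any comparison. Cox7a2, the form common to most tissues, differed by -0.04 log2 in mutant (adjusted p 0.841) and 0.06 log2 in WT organoids (adjusted p 0.601). Cox7a2l, which takes part in joining complexes into supercomplexes, differed by -0.06 and -0.13 log2 (adjusted p 0.753 and 0.215). Over the 16 tested genes of complex IV the median difference was -0.03 log2 in mutant and -0.02 log2 in WT organoids, with 12 and 11 genes lower.

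**Figure D3:**
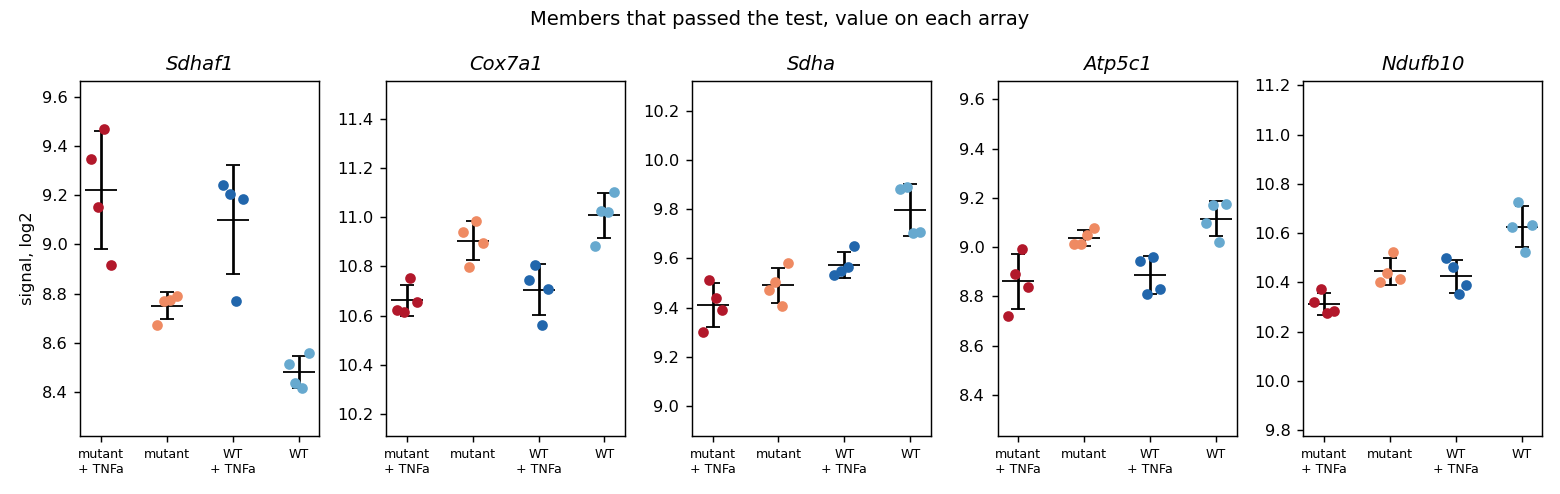
Log2 signal on each array (points) with group mean and SD (bars) for the 5 members that passed the test in any comparison, each panel spanning the same height of log2 units. Sdhaf1 is higher with TNFa in both genotypes, Cox7a1 is lower in both, and Sdha is highest in untreated WT organoids.

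Complex V makes ATP with a rotating F1 head and a membrane stalk. Atp5c1, the central shaft of the head, had 8.72, 8.89, 8.99 and 8.84 log2 in treated mutant organoids, against 9.01, 9.01, 9.05 and 9.08 log2 in untreated mutant organoids. It had 8.94, 8.81, 8.96 and 8.83 log2 in treated WT organoids, against 9.10, 9.17, 9.02 and 9.17 log2 in untreated WT organoids. No treated array reached an untreated one of its genotype. Atp5c1 fell in WT organoids by 0.23 log2 (SE 0.06, adjusted p 0.0253), and differed by -0.18 log2 in mutant organoids without passing (SE 0.06, adjusted p 0.131). Leaving out any 1 of 4 WT arrays ended the call in WT organoids, with adjusted p between 0.0508 and 0.0758, and WT replicate 2 with TNFa was among these arrays.

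The 12 membrane and stalk genes were all lower with TNFa in mutant organoids, with a median of -0.05 log2, and 8 of the 12 were lower in WT organoids, with a median of -0.03 log2. None passed, and 0 and 4 had an unadjusted p under 0.05. Atp5g1, Atp5g2 and Atp5g3 encode the same ring protein with different targeting sequences. Atp5g1 had 10.97, 11.03, 11.01 and 11.01 log2 in treated mutant organoids, against 11.14, 11.10, 11.13 and 11.09 log2 in untreated ones, a difference of -0.11 log2 (adjusted p 0.673). In WT organoids it had 10.99, 10.53, 11.05 and 11.06 log2 with TNFa, against 11.18, 11.27, 11.08 and 11.11 log2 without it, a difference of -0.25 log2 (adjusted p 0.0923) in which the single array at 10.53 log2 was replicate 2. Without it the difference was -0.12 log2 (adjusted p 0.146), and with a variance trend and robust fitting on all arrays Atp5g1 passed (adjusted p 0.0469). Atp5pb, of the outer stalk, differed by -0.03 log2 in mutant and -0.18 log2 in WT organoids (adjusted p 0.94 and 0.166), and Atp5l, of the membrane part, was -0.14 log2 in mutant against WT with TNFa (adjusted p 0.242). Atp5g2 differed by -0.07 and 0.03 log2 and Atp5g3 by -0.01 and -0.12 log2 in mutant and WT organoids, without passing.

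Complex I, the largest of the complexes, takes electrons from NADH. Its 6 core subunits on the list include carriers of the flavin and of iron-sulfur clusters. The median difference of these 6 with TNFa was -0.04 log2 in mutant and -0.08 log2 in WT organoids. None passed in limma, and 0 and 1 had an unadjusted p under 0.05. Of the 29 supernumerary subunits, which surround the core, 26 were lower with TNFa in mutant and 23 in WT organoids, with medians of -0.06 and -0.07 log2. One passed in WT organoids. That gene, Ndufb10, had 10.32, 10.37, 10.28 and 10.28 log2 in treated mutant organoids, against 10.40, 10.44, 10.52 and 10.41 log2 in untreated mutant organoids. It had 10.50, 10.46, 10.35 and 10.39 log2 in treated WT organoids, against 10.63, 10.73, 10.52 and 10.63 log2 in untreated WT organoids. The arrays were separated by treatment within each genotype. The fall was 0.20 log2 in WT organoids (SE 0.06, adjusted p 0.0292), and the difference in mutant organoids was -0.13 log2 (adjusted p 0.252). The WT call was lost without any 1 of 5 arrays, with adjusted p of up to 0.0961.

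The 8 assembly factors of complex I did not share the direction of the subunits: 5 of 8 were higher with TNFa in each genotype, with medians of 0.06 log2 in mutant and 0.03 log2 in WT organoids. None passed, and 2 in each genotype had an unadjusted p under 0.05. Ndufaf5, a factor that modifies a core subunit, differed by -0.23 log2 in WT organoids (adjusted p 0.354), and by -0.04 log2 without WT replicate 2 with TNFa. Ndufaf6 was -0.15 log2 in mutant against WT organoids with TNFa (adjusted p 0.541), and -0.06 log2 without that array. Ndufaf1, which acts in the assembly of the membrane arm, had 6.47, 6.64, 6.81 and 6.56 log2 in treated mutant organoids, against 6.16, 6.61, 6.26 and 6.32 log2 in untreated ones. In WT organoids it had 6.71, 6.31, 6.43 and 6.76 log2 with TNFa, against 6.79, 6.91, 6.36 and 6.67 log2 without it. All 4 groups overlapped and 2 group means lay under the dim limit. Its effects of 0.28 log2 in mutant (adjusted p 0.28) and -0.13 log2 in WT organoids (adjusted p 0.588) were the furthest apart of all members, by 0.41 log2, which did not pass (SE 0.18, adjusted p 0.643).

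Complex III, which passes electrons from ubiquinol to cytochrome c, had 8 tested subunits and none that passed, with 0 in mutant and 1 in WT organoids at an unadjusted p under 0.05. With TNFa, 7 of the 8 were lower in mutant and all 8 in WT organoids, with medians of -0.04 and -0.06 log2. Uqcrh, the hinge protein, had 12.66, 12.68, 12.69 and 12.69 log2 in treated mutant organoids, against 12.71, 12.71, 12.72 and 12.71 log2 in untreated mutant organoids. It had 12.67, 12.51, 12.66 and 12.65 log2 in treated WT organoids, against 12.71, 12.73, 12.71 and 12.71 log2 in untreated WT organoids. Treated arrays lay below untreated ones in both genotypes, although the differences of -0.04 log2 (adjusted p 0.84) and -0.09 log2 (adjusted p 0.256) did not pass. Uqcrc1, a core protein of the complex, differed by -0.07 log2 in mutant and -0.17 log2 in WT organoids (adjusted p 0.809 and 0.177). Uqcrb, which binds ubiquinone, differed by -0.09 log2 in mutant and -0.03 log2 in WT organoids (adjusted p 0.434 and 0.796). Uqcrfs1, the Rieske iron-sulfur protein, differed by -0.10 log2 in WT organoids (adjusted p 0.415) and passed at -0.17 log2 without WT replicate 2 with TNFa (adjusted p 0.03).

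Mutant organoids differed from WT organoids in 1 member. Without TNFa, 0 of the 92 were higher and 1 was lower, against 1.00% and 1.48% of all tested genes. With TNFa, 0 of the 92 passed, against 2.69% of all tested genes, and 5 had an unadjusted p under 0.05. The member was Sdha, which in untreated organoids was lower in mutant than in WT by 0.30 log2 (SE 0.06, adjusted p 0.0137), or 1.24-fold. All 4 untreated mutant arrays, from 9.41 to 9.58 log2, lay below all 4 untreated WT arrays, from 9.70 to 9.89 log2. With TNFa, mutant arrays were again below all WT arrays, with a difference of -0.16 log2 (SE 0.06, adjusted p 0.252). The call without TNFa was lost when untreated WT replicate 1 (adjusted p 0.0523) or replicate 2 (0.0592) was left out.

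**Figure D4:**
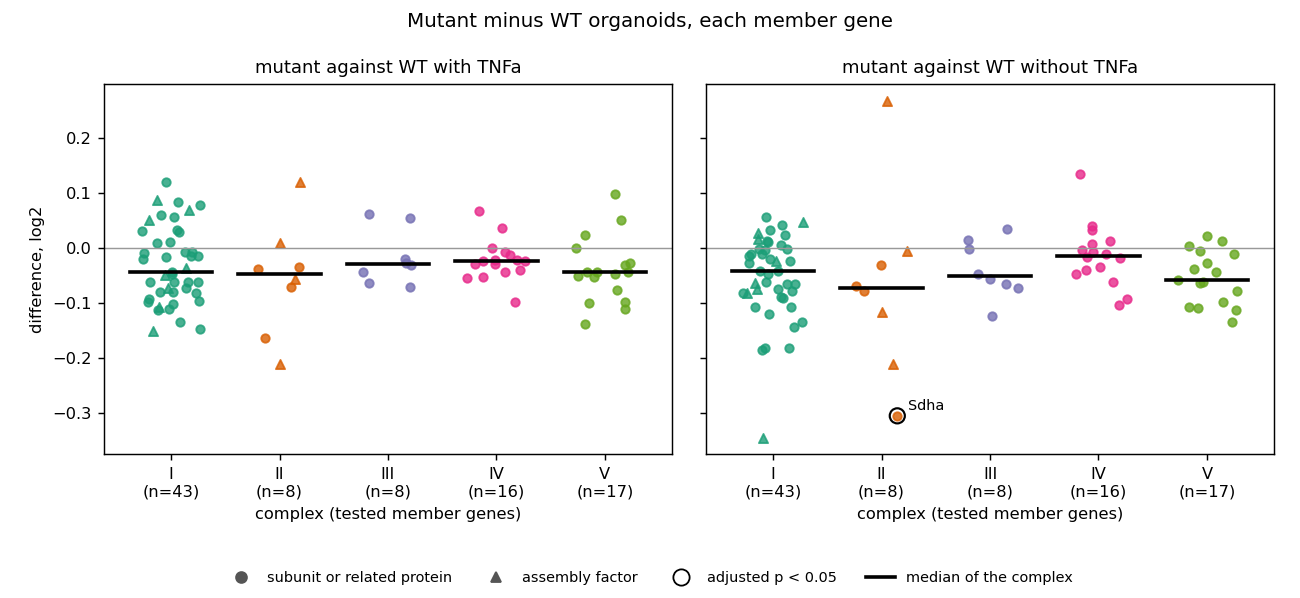
Difference in log2 signal between mutant and WT organoids for each tested gene, by complex, with TNFa (left) and without TNFa (right), drawn with the same symbols as the TNFa differences. Sdha without TNFa is the 1 ringed gene.

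The lean towards lower values was also present between genotypes. With TNFa, 68 of the 92 members (73.9%) were lower in mutant than in WT organoids, against 50.6% of all tested genes, with a median of -0.04 log2. Without TNFa, 71 of the 92 (77.2%) were lower, against 52.3% of all tested genes, with a median of -0.04 log2. The 2 comparisons share no array, and 54 members (58.7%) were lower in both, against 30.7% of all tested genes. Mutant arrays lay below all WT arrays for 9 members with TNFa (9.78%, against 4.62% of all tested genes) and for 10 without it (10.9%, against 5.88%). Ndufb8, a supernumerary subunit of complex I often used as a protein marker of the assembled complex, was among them in both, at -0.15 log2 with TNFa (adjusted p 0.157) and -0.14 log2 without it (adjusted p 0.179). The comparisons of genotype and of treatment share arrays, so their directions are not independent of each other. Among the stem and dividing cell markers, 1 of 12 (Smoc2) was higher in mutant organoids with TNFa, and 0 passed without it, while 11 of 12 had the higher mean in mutant organoids in each comparison. Their mean level ran from 8.84 to 8.91 log2 on mutant and 8.64 to 8.76 log2 on WT arrays with TNFa, and from 8.72 to 8.85 log2 on mutant and 8.49 to 8.74 log2 on WT arrays without it. Of the 12 absorptive colonocyte markers, 0 were higher and 2 lower in mutant organoids with TNFa, Slc9a3 at -1.02 log2 (adjusted p 0.000646) and Guca2b at -0.31 log2 (adjusted p 0.0135), and 10 had the lower mean. Without TNFa, 1 was lower, Slc9a3 at -1.20 log2 (adjusted p 0.000106), and 9 had the lower mean. The mean level of that list ran from 11.01 to 11.08 log2 on mutant and 11.21 to 11.35 log2 on WT arrays with TNFa, and from 10.76 to 11.02 log2 on mutant and 11.02 to 11.14 log2 on WT arrays without it, so mutant arrays were below WT arrays with TNFa. Of 9 goblet cell markers, 1 was higher in mutant organoids in each comparison, Reg4 at 1.27 log2 with TNFa and 0.58 log2 without it (adjusted p 2.6e-08 and 0.000106). Cdx2, an intestinal transcription factor, was -0.52 log2 in untreated mutant against untreated WT organoids (adjusted p 0.0158). The part of these genes in the levels of the members was not tested.

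The response to TNFa was not shown to depend on genotype for any member. In the test of the difference between the effects, 0 of the 92 members passed, against 0.00850% of all tested genes, and 1 had an unadjusted p under 0.05. The median difference of effects (mutant minus WT) was 0.01 log2, the same as over all tested genes. The 95% interval of the difference lay within 0.5 log2 of zero for 90 members and within 0.25 log2 for 61. For 76 mitochondrial ribosomal protein genes these counts were 74 and 34, and for 15 genes of mitochondrial fatty acid oxidation 13 and 6.

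The start regions of the 3 genes that passed in more than 1 comparison are shown. Sdhaf1 rose and Cox7a1 fell with TNFa in both genotypes. Sdha passed with TNFa in WT organoids and between the untreated genotypes. Both Sdha comparisons use the untreated WT arrays, and both calls were lost without untreated WT replicate 1 or replicate 2. In the treatment and genotype comparisons without those arrays, Sdha did not pass. Each region runs 5′ to 3′ on the gene's own strand from 250 bases before to 50 bases after the start given by RefSeq (GRCm38.p6). Capitals mark matches to core letters of factors known to bind near respiratory genes.
Sdhaf1, chr7:30322326-30322625, minus strand: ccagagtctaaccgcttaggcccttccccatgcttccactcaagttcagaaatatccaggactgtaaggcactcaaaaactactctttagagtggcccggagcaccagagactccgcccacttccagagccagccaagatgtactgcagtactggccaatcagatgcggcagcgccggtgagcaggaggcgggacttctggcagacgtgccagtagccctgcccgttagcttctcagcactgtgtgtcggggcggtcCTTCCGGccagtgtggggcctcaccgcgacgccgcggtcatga
Cox7a1, chr7:30183921-30184220, plus strand: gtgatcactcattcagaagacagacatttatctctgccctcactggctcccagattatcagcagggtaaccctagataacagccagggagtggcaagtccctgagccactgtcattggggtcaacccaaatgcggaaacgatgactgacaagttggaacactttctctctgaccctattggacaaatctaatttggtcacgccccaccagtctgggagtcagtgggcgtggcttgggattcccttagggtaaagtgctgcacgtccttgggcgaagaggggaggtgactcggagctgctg
Sdha, chr13:74350191-74350490, minus strand: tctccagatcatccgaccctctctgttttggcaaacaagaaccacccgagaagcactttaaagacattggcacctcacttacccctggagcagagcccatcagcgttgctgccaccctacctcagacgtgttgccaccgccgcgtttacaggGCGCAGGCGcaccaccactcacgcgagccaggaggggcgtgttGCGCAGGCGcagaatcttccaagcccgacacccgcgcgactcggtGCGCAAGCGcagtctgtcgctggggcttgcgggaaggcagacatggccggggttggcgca
In Sdhaf1 the capitals mark 1 match to the ETS core CCGGAAG, on the opposite strand. In Sdha they mark 3 matches to GCGCANGCG, a form of the core bound by nuclear respiratory factor 1 (NRF1) with 1 free base. None of the motifs searched was found in the Cox7a1 window, which says only that these letters are not there.

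RefSeq start regions were found for 80 of the 96 members, 85 regions in all, and both strands were searched. The NRF1 palindrome CGCATGCG was in 12.9% of the members' regions, against 2.65% of the 18566 regions of genes on the arrays. GCGCANGCG, which can overlap the palindrome and was added after sequences had been read, was in 29.4%, against 9.22%. The ETS core was in 25.9%, against 12.1%, and AANATGGCG, a core of YY1, was in 14.1%, against 3.31%. The cyclic AMP response element TGACGTCA, a type of site bound by proteins of the ATF family, was in 4.71%, against 2.35%, namely in Ndufa10, Ndufa11, Ndufb2 and Uqcrfs1. These are matches of letters and do not show binding.

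Regulators of mitochondrial content were looked at in a separate list, where 1 coactivator fell with TNFa in both genotypes and its relative fell in WT organoids. Ppargc1a, which encodes the coactivator PGC-1 alpha, had 10.70, 10.92, 10.87 and 10.90 log2 in treated mutant organoids, against 11.24, 11.19, 11.18 and 11.21 log2 in untreated mutant organoids. It had 10.68, 10.54, 10.41 and 10.54 log2 in treated WT organoids, against 11.15, 11.10, 11.20 and 11.16 log2 in untreated WT organoids. All treated arrays lay below all untreated ones, and those of WT below those of mutant. Ppargc1a fell with TNFa by 0.36 log2 in mutant (SE 0.06, adjusted p 0.0015) and by 0.61 log2 in WT organoids (SE 0.06, adjusted p 4.37e-06). With TNFa it was 0.30 log2 higher in mutant than in WT organoids (SE 0.06, adjusted p 0.0118), and this call was lost with only the groups compared in the fit (adjusted p 0.09). Its relative Ppargc1b fell by 0.34 log2 in WT organoids (adjusted p 0.0024). In mutant organoids Ppargc1b averaged 9.40 log2 with TNFa and 9.62 log2 without it, and did not pass. Of the 18 tested genes of this list, 0 rose and 1 fell in mutant organoids, and 0 rose and 2 fell in WT organoids. Of all tested genes, 2.47% fell in mutant and 5.75% in WT organoids. In the test of the difference between the effects, 0 of the 18 passed, so a response that depends on genotype was not shown. Nrf1, the transcription factor whose core was searched for, averaged 9.34 ± 0.04 and 9.33 ± 0.06 log2 in treated and untreated mutant organoids, and 9.27 ± 0.20 and 9.34 ± 0.04 log2 in treated and untreated WT organoids (SD, n = 4 each). Tfam averaged 8.30 ± 0.14 and 8.35 ± 0.21 log2 in treated and untreated mutant organoids. In WT organoids it averaged 8.32 ± 0.24 log2 with TNFa and 8.37 ± 0.18 log2 without it (SD, n = 4 each). Neither Nrf1 nor Tfam passed with TNFa in either genotype.

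Mitochondrial fatty acid oxidation, which feeds electrons into the same chain, had several genes that fell. Of its 15 tested genes, 0 rose and 5 fell with TNFa in mutant organoids, and 0 rose and 6 fell in WT organoids, with medians of -0.12 and -0.21 log2. The falls over all tested genes were 2.47% in mutant and 5.75% in WT organoids. Hadh, which oxidises the hydroxyacyl intermediate, averaged 10.87 ± 0.09 and 11.20 ± 0.11 log2 in treated and untreated mutant organoids, and 10.84 ± 0.14 and 11.30 ± 0.10 log2 in treated and untreated WT organoids (SD, n = 4 each). It fell by 0.33 log2 in mutant (adjusted p 0.0162) and by 0.46 log2 in WT organoids (adjusted p 0.000711). Cpt1a, which loads fatty acids for import, fell by 0.24 log2 (adjusted p 0.0239) and by 0.39 log2 (adjusted p 4e-04) in mutant and WT organoids. Acaa2, the last enzyme of the cycle, fell by 0.38 log2 in each genotype (adjusted p 0.00132 in mutant and 0.000778 in WT). Slc25a20 and Acadm fell in both genotypes as well, and Hadha fell in WT organoids. In WT organoids the falls of Slc25a20 and Hadha were lost with only the groups compared in the fit (adjusted p 0.069 and 0.0823), and that of Acadm with no brightness filter (0.053). In mutant organoids the falls of Acadm, Cpt1a and Hadh were lost without any 1 of 5, 4 and 3 arrays. Between genotypes 0 passed in limma, with 1 at an unadjusted p under 0.05 with TNFa and 5 without it.

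**Figure D5:**
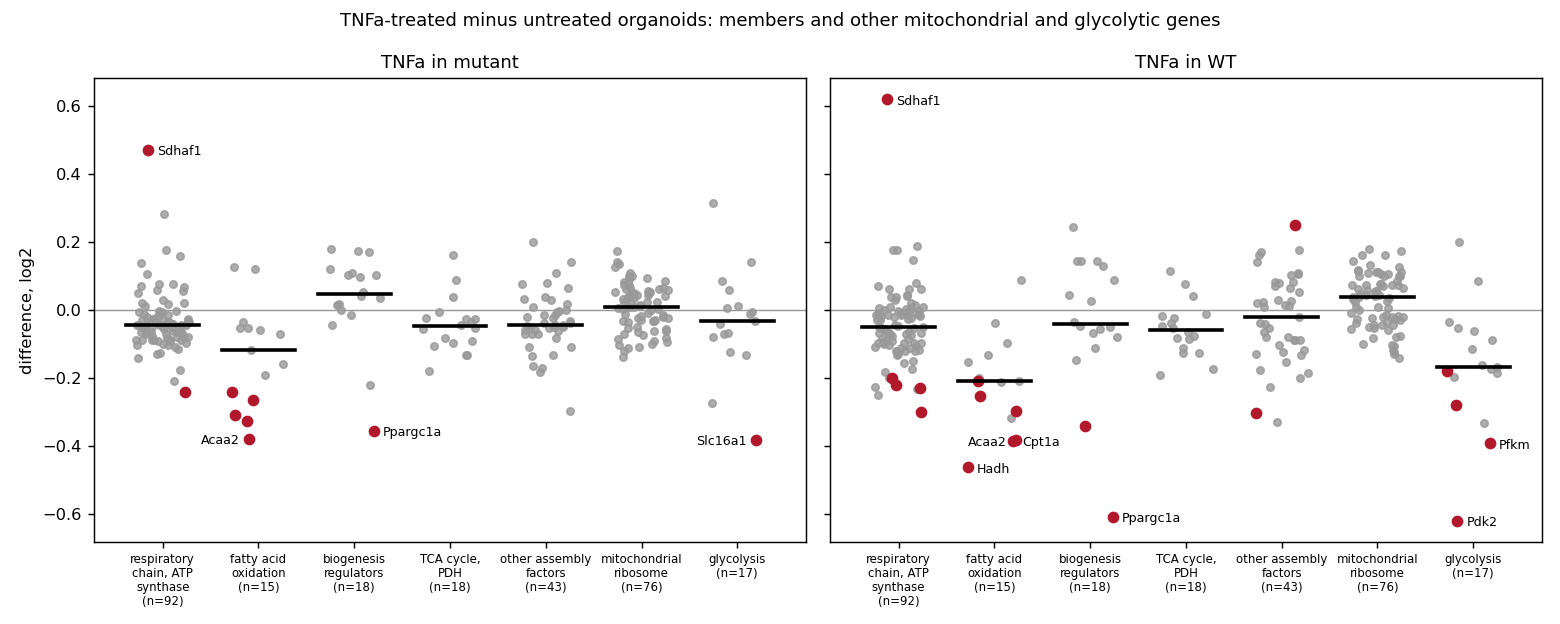
Difference in log2 signal between TNFa-treated and untreated organoids for the respiratory and ATP synthase genes and for other lists, in mutant (left) and WT organoids (right). Each point is 1 tested gene, red points passed the test and black bars are medians, which lie lowest for fatty acid oxidation in both panels.

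Apart from the glycolysis list in WT organoids, the remaining lists changed in few genes with TNFa. Of 18 genes of the tricarboxylic acid cycle and pyruvate dehydrogenase, 0 passed in either genotype, with 3 at an unadjusted p under 0.05 in each, and medians of -0.05 log2 in mutant and -0.06 log2 in WT organoids. Of 76 mitochondrial ribosomal protein genes, 0 passed, with 3 and 7 at an unadjusted p under 0.05, and medians of 0.01 and 0.04 log2. Of 43 other assembly factors, 0 passed in mutant organoids, while in WT organoids Cox18, an insertase for a complex IV subunit, was 0.25 log2 higher and Dmac2 was -0.30 log2 (adjusted p 0.0301 and 0.0306). These 2 calls were lost under 4 and 2 of 10 alternatives, with adjusted p of up to 0.0739 and 0.107. Of 8 genes for cytochrome c, ATP synthase inhibition and ATP export, 0 passed in mutant organoids and Atpif1, the ATP synthase inhibitor, fell by 0.15 log2 in WT organoids (adjusted p 0.0428), a call lost under 3 of 10 alternatives (adjusted p of up to 0.194) and without any 1 of 13 arrays. Cycs, the cytochrome c gene, differed by -0.08 log2 in mutant and -0.10 log2 in WT organoids (adjusted p 0.634 and 0.398). The glycolysis list of 17 tested genes also holds monocarboxylate transporters and pyruvate dehydrogenase kinases. In mutant organoids 0 rose and 1 fell, the transporter gene Slc16a1. In WT organoids 0 rose and 4 fell: Pdk2, Slc16a1 and the genes of glycolytic enzymes Pfkm and Pgk1. The call of Pgk1 (adjusted p 0.0487) was lost without any 1 of 13 arrays. The medians of the list were -0.03 log2 in mutant and -0.17 log2 in WT organoids, with 11 and 15 of the 17 lower. Of all tested genes, 2.47% fell in mutant and 5.75% in WT organoids. Pdk2, a kinase that restrains pyruvate dehydrogenase, fell by 0.62 log2 in WT organoids (SE 0.06, adjusted p 1.84e-06). In mutant organoids Pdk2 differed by -0.13 log2 without passing (adjusted p 0.275). Without TNFa it was -0.37 log2 in mutant against WT organoids (adjusted p 0.00151). Its effects differed by 0.49 log2 (mutant minus WT), which did not pass (adjusted p 0.104). Slc16a1, a monocarboxylate transporter that carries butyrate and lactate, fell by 0.38 log2 in mutant (adjusted p 0.00131) and by 0.28 log2 in WT organoids (adjusted p 0.00969).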

How the data were processed

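RNA of 16 samples was measured on Affymetrix arrays. The deposited values are log2 signals, which the authors made with RMA in Affymetrix Expression Console, per the submitters' processing notes. The array design, the build and tool versions are not given in the sources used here. Per the labels' protocols, the RNA was amplified before labelling, which can alter differences. Of 19825 probe sets, 18851 carried 1 gene symbol and 974 none. A gene was represented by its brightest probe set over the 16 arrays, and tested if above its array's 40th percentile, 6.40 to 6.56 log2, on at least 4 arrays. Group means were compared in limma 3.58.1 (R 4.3.3), with 1 fit to all 16 arrays, no replicate block and 5 comparisons, and the code was tested on simulated data. A group mean under 6.56 log2 is called dim.

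The members, the lists and the rule for named genes were chosen with earlier results of these data known. The rule named members that passed, the largest change and the brightest gene of each complex, and the isoform list. Ndufb8, Sdhc, Sdhd, Sdhaf4, Atp5o and Ndufa6, and genes of the other lists, were named after their values were seen. Alternatives covered the filter, probe set choice, variance model, array weights, normalisation, replicate block, groups fitted, subunits alone and each array left out. Lists for cell types were used as markers only, and RefSeq start regions were searched for motifs.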

Additional observations from a re-analysis of the deposited data

Results flagged for a closer look

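Within groups of 4 arrays, 84 sets of values were checked for a single array far from its 3 companions, and 7 were found, where chance flags about 1 in 20. Of these, 3 are WT replicate 2 with TNFa, the array that stood apart over all genes: it had 10.53 log2 for Atp5g1 with the others from 10.99 to 11.06, 12.51 log2 for Uqcrh with the others from 12.65 to 12.67, and 11.63 log2 for Cycs, which encodes cytochrome c, with the others from 11.90 to 11.94. For Sdhaf1, WT replicate 3 with TNFa had 8.77 log2, with the others from 9.19 to 9.24, and untreated mutant replicate 1 had 8.67 log2, with the others from 8.77 to 8.79. For Cycs, untreated WT replicate 3 had 11.96 log2, with the other 3 at 11.94, a gap of a few hundredths. The mean over all tested members, measured from the array median, was 2.41 log2 on untreated mutant replicate 2, with the others at 2.44. What set these arrays apart was not tested.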

How the results depend on the processing

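The number of members that passed with TNFa in WT organoids was 5 and depended on the settings: it was 2 with no brightness filter, 11 with a variance trend and robust fitting, 8 with array weights, 3 with a replicate block and 2 with only the groups compared in the fit, and 2 to 5 when single arrays were left out. In mutant organoids it was 2, and 1 with no filter, with a replicate block and over subunits only, and 3 with array weights, when Atp5c1 passed as well (adjusted p 0.0387), and 0 to 2 without single arrays. Without treated mutant replicate 1 it was 0. For mutant against WT without TNFa it was 1, and 2 with only the groups compared, and 0 to 1 without single arrays. For mutant against WT with TNFa, and for the difference of the effects, it was 0 under every alternative run. These counts are given without the shares of all tested genes that passed under the same settings, and those shares may differ between settings. The median difference with TNFa in WT organoids was -0.0749 log2 after arrays were centred on their medians, when that of all tested genes was -0.01 log2, and -0.06 to -0.04 log2 without single arrays. Without WT replicate 2 with TNFa, 5 members passed there, with Atp5c1 and Sdha lost and Sdhaf4 and Uqcrfs1 gained, and the median was -0.04 log2. Uqcrfs1, -0.07 log2 in mutant against WT with TNFa, was 0.0054 log2 without that array and ran from -0.1067 to 0.0054 log2 over all arrays left out in turn. Paired numbers were checked as well: samples of the same number correlated between -0.31 and 0.25 over 16 pairs, with 3 over 0.1. Samples of different numbers correlated between -0.35 and 0.38. The pairs included mutant against WT samples, for which a shared number need not mean a shared animal or culture. Pairing by number was therefore not shown, but with so few arrays per group the check cannot exclude it. The replicate block ended the calls of Atp5c1 and Sdha with TNFa in WT organoids (adjusted p 0.0509 and 0.0563) and of Cox7a1 in mutant organoids (0.0767). Causes were not tested. The difference of effects has no value with only the groups compared, since it uses all groups.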
